A study of Mus musculus with 20 samples.

Results

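Mature medullary thymic epithelial cells (mTEChi) were set against their less mature counterparts (mTEClo) in mice with the wild-type Trp53 allele (Trp53-WT, WT below). The comparison used the fragment counts of all 6 WT libraries, 3 of mTEChi and 3 of mTEClo, out of 12 libraries in the series. They were taken to stand for 10 of the 20 samples of the series, since the labels list 2 samples for each of replicates 1 and 2 where the table holds 1 column. That such a column combines both samples was assumed and was not tested. All genes of the table entered: 51810 were listed and 28932 passed the filter on low counts and were tested. The remaining 6 libraries came from the same cell types of mice labelled Trp53-cHyper (cHyper), a name the labels do not explain. They shared the fit and were used to ask whether the maturation difference itself differed between the genotypes. All mice were 4 to 5 weeks old, and each sample was 75000 mTEC sorted by flow cytometry after enzymatic digestion of the thymus and bead enrichment of epithelial cells by EpCAM. The sources used here do not state the gates that separated mTEChi from mTEClo. By convention these rest on surface MHC class II or CD80, so the levels of these genes may be close to what was sorted on. Nothing in the labels says that replicates were separate animals. By its sex-linked genes, given below, replicate 3 came from other mice than replicates 1 and 2. Whether replicates 1 and 2 were separate animals is not known. The p-values therefore measure the spread between these libraries, which may be partly technical.

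The medulla of the thymus teaches developing T cells to tolerate the body's own tissues. As an mTEC matures under RANK and CD40 signals it gains surface MHC class II and costimulatory molecules and switches on Aire, a nuclear protein that releases many silent tissue-restricted genes for transcription. Fezf2, a zinc finger factor, drives a separate set of such genes. The mTEClo gate holds progenitors and chemokine-producing cells but also cells past the Aire stage, including tuft cells and other cells that mimic peripheral tissues, so it is a mixture.

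Library totals were 42595959, 43093774 and 25179448 fragments in mTEChi, against 45592838, 46462629 and 22023800 fragments in mTEClo. Replicate 3 was the shallowest library of both groups and came from a female, with 1294 CPM of Xist in mTEChi and 1760 CPM in mTEClo and no fragment of the Y-linked Ddx3y, while Xist was at most 8.36 CPM in replicates 1 and 2. Sex and depth were therefore balanced between the cell types. Levels below are CPM, counts divided by the library's size after scaling with edgeR's TMM factors, given per library or as mean ± SD over the 3 libraries of a group. A gene was called where edgeR's quasi-likelihood test gave a Benjamini-Hochberg adjusted p under 0.05.

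The epithelial marker Epcam, on which cells were enriched, averaged 469 ± 52.5 CPM in mTEChi and 555 ± 37 CPM in mTEClo, a difference that was not called (log2 -0.24, SE 0.13, edgeR adjusted p = 0.111). Psmb11, the proteasome subunit that marks cortical epithelium, averaged 9.76 ± 1.27 CPM in mTEChi and 11.6 ± 0.341 CPM in mTEClo and was not called. Of 12 cortical epithelial genes 7 were higher and 4 lower (median log2 0.71), while their summed level was 1150 to 1278 CPM in mTEChi, against 2630 to 3646 CPM in mTEClo. The chemokine Ccl25 was among those higher, at 262 ± 24.5 CPM in mTEChi against 36.4 ± 9.72 CPM in mTEClo, and the protease Ctsl among those lower. Markers of immune, endothelial and erythroid cells were present at low levels and mostly higher in mTEChi. Of 16 myeloid and dendritic markers 14 were higher and 2 lower, and their summed level was 592 to 758 CPM in mTEChi, against 98.75 to 158 CPM in mTEClo. The macrophage genes Adgre1 and C1qb stood at 23.6 ± 2.06 CPM in mTEChi against 0.102 ± 0.0368 CPM in mTEClo and 32 ± 5.14 CPM in mTEChi against 0.631 ± 0.231 CPM in mTEClo. All 6 B cell markers were higher, with sums of 73.65 to 74.8 CPM in mTEChi and 8.06 to 11.4 CPM in mTEClo. Of 14 thymocyte markers 11 were higher (71.02 to 85.01 CPM summed in mTEChi, 15.64 to 32.91 CPM in mTEClo), and 6 were higher with replicates 1 and 2 alone. All 7 endothelial and 5 of 7 erythroid genes were higher too, with summed levels of 83.98 to 106.9 and 62.34 to 83.31 CPM in mTEChi, against 17.34 to 20.74 and 12.76 to 20.79 CPM in mTEClo. No marker of these lists was at 0 in either group. Fibroblast and pericyte markers were split by count, 4 higher and 4 lower of 11. Their summed level was lower in mTEChi, at 854 to 978 CPM against 2052 to 2319 CPM in mTEClo. Mature mTEC transcribe genes of many tissues, and the part of other cells in the results below was not tested. In sorted populations, fewer cells of a type and less RNA per cell cannot be told apart.

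Maturation separated the libraries almost completely. The first principal component of the 6 libraries held 91.4% of the variance, with the mTEChi libraries at -185.65, -182.95 and -199.52 and the mTEClo libraries at 196.52, 179.64 and 191.95. Of 28932 genes tested, 20119 (69.5%) were called, 11626 (40.2%) higher and 8493 (29.4%) lower in mTEChi. The mTEChi and mTEClo libraries did not overlap at 21193 genes (73.3%). These shares are the background for every list below, since a group of genes with 40.2% higher and 29.4% lower members looks like the whole table. Tested against a 2-fold change rather than against none, 8457 genes were higher and 2424 lower. The rises were larger than the falls. The median log2 fold change was 3.05 among genes called higher and -0.87 among genes called lower, and 0.12 over all genes tested. The median over all genes moved to 0.22 with DESeq2's size factors and to 0.34 with library totals as scaling, so that small changes are read relative to these values.

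The mTEChi libraries held more kinds of RNA. After each library was thinned to 22023800 fragments, the smallest total, 37347, 36991 and 36232 genes had at least 1 fragment in mTEChi, against 28620, 29205 and 28306 in mTEClo. The means were 36857 ± 570 and 28710 ± 456 (SD, n = 3 each), a difference of 8146 genes. Every mTEChi library lay above every mTEClo library, which gives an exact two-sided permutation p of 0.10, the smallest that 3 against 3 allows. With at least 5 fragments asked for, 28892 ± 187 genes were detected in mTEChi and 22842 ± 222 in mTEClo. At 1 deposited TPM (the authors' level per transcript, a unit scaled by gene length) or more, the numbers were 24892 ± 322 and 19631 ± 73.2. Detection needs only a fragment, so these numbers include genes that most cells of a library may lack.

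The genes gained were mostly scarce. Among tested genes between 0.1 and 1 TPM (mean of the group means), 63.2% were higher and 5.64% lower in mTEChi. The order was the other way at higher levels, with 24.3% higher and 46.3% lower between 10 and 100 TPM and 23.5% higher and 46.3% lower above 100 TPM. A scarce gene could pass the low-count filter through mTEChi alone and then had to differ, so the first of these shares describes the genes that passed. The 8457 genes over 2-fold higher made up 18.1, 18.4 and 19% of the CPM of the mTEChi libraries, against 2.64, 2.89 and 2.86% in mTEClo. The 2424 genes over 2-fold lower made up 7.01, 6.87 and 6.27% in mTEChi, against 26, 25.2 and 25.1% in mTEClo. These sets were chosen on the same values and the shares are a description. For 1689 genes no fragment was counted in any mTEClo library, and 1677 of them had a fragment in each mTEChi library. Their median level in mTEChi was 0.979 TPM, with 55 genes above 10 TPM, and together they made up 0.199 to 0.246% of the CPM of an mTEChi library. In the other direction only 3 tested genes had no fragment in mTEChi, the bitter taste receptor Tas2r119 among them, with 79 fragments over the mTEClo libraries.

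**Figure D1:**
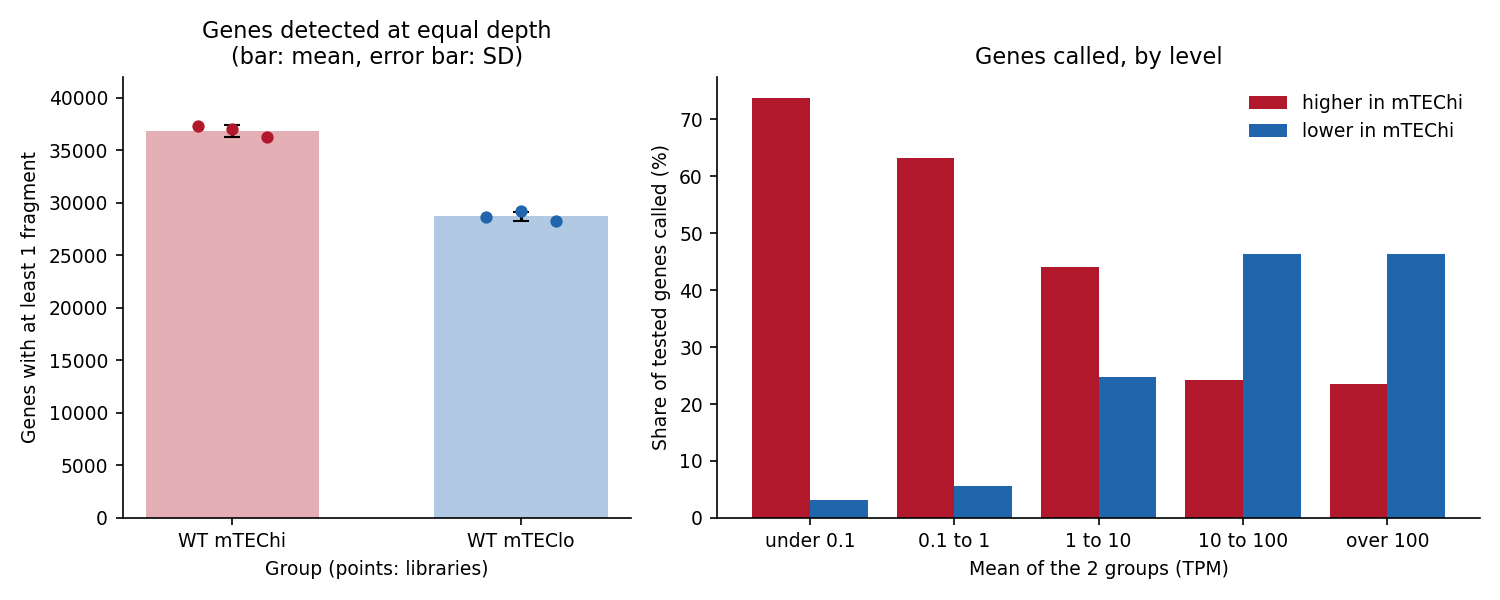
Left, number of genes with at least 1 fragment after thinning to equal depth (points: libraries, bar: mean, error bar: SD), with mTEChi at 36857 and mTEClo at 28710 genes. Right, share of tested genes called higher (red) or lower (blue) in mTEChi, by mean level in TPM; higher calls lead below 10 TPM and lower calls above.

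Aire (chromosome 10, 78030022 to 78043610 on mm10, ENSMUSG00000000731) was present at 1918, 1923 and 1918 CPM in mTEChi, against 11.3, 16.2 and 15.4 CPM in mTEClo. No mTEClo library came near an mTEChi library, and the fold change was 135 (log2 7.07, SE 0.21, edgeR adjusted p = 2.38e-11). Cd80, the costimulatory ligand used in many gates, was present at 191, 216 and 192 CPM in mTEChi, against 4.65, 9.03 and 7.32 CPM in mTEClo, a 28.6-fold rise. Fezf2 was less restricted. It stood at 481, 517 and 405 CPM in mTEChi, against 156, 162 and 151 CPM in mTEClo, a 2.99-fold difference (log2 1.58, SE 0.14, edgeR adjusted p = 1.34e-07), so that mTEClo held Fezf2 RNA at 109.8 TPM but Aire RNA at 7.95 TPM. Of 23 genes of mature mTEC, 22 were higher, none was lower, and the median log2 change was 1.56. H2-DMa, part of the peptide exchanger of MHC class II, was the exception at 158 ± 27.7 CPM in mTEChi against 152 ± 7.54 CPM in mTEClo (log2 0.05, edgeR adjusted p = 0.691).

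The MHC class II genes rose by less than Aire and were already abundant in mTEClo. H2-Aa, an MHC class II alpha chain, was present at 5781, 6343 and 7481 CPM in mTEChi, against 2978, 3033 and 2783 CPM in mTEClo, which is 2.23-fold (edgeR adjusted p = 1.17e-06). Cd74, the invariant chain, averaged 13879 ± 2624 CPM in mTEChi and 6252 ± 358 CPM in mTEClo, and H2-Ab1 5582 ± 997 CPM in mTEChi and 3626 ± 346 CPM in mTEClo. Ciita, the transactivator of this gene set, differed 1.75-fold (468 ± 24.9 CPM in mTEChi against 267 ± 23.3 CPM in mTEClo). H2-Eb2, an atypical class II beta chain, went further, at 1222 ± 46.4 CPM in mTEChi against 92.9 ± 20.8 CPM in mTEClo or 13.1-fold. Tnfrsf11a, which encodes RANK, was 1.67-fold higher (337 ± 36.4 CPM in mTEChi against 202 ± 8.75 CPM in mTEClo), while Tnfrsf11b, its decoy ligand-binding relative osteoprotegerin, was 13.3-fold higher (274 ± 9.82 CPM in mTEChi against 20.8 ± 3.02 CPM in mTEClo). Foxn1, the master factor of thymic epithelium, was 1.8-fold higher (140.4 ± 8.41 CPM in mTEChi against 78 ± 10.5 CPM in mTEClo).

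**Figure D2:**
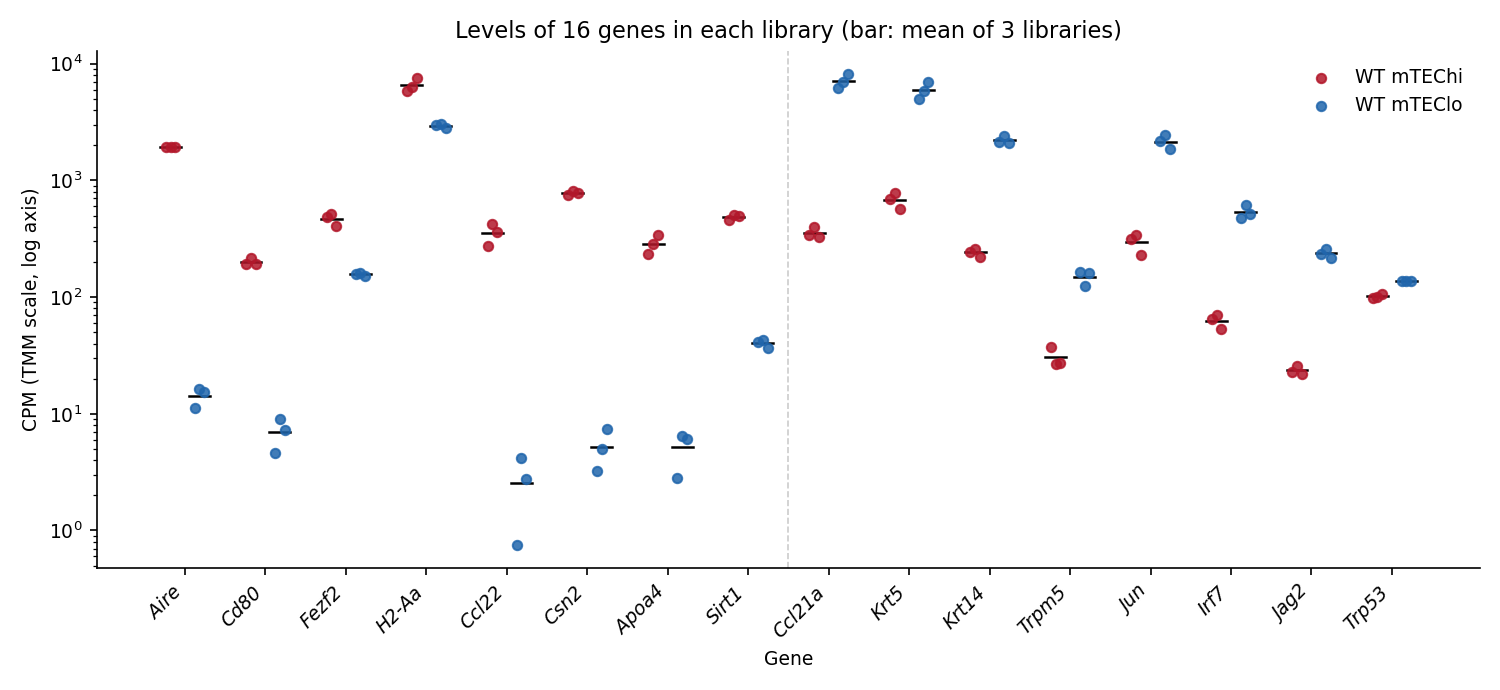
Level of 16 genes in CPM (log axis) in each WT library, mTEChi (red) left of mTEClo (blue); horizontal bars are means of 3 libraries. Genes left of the dashed line were higher and genes right of it lower in mTEChi, and the libraries of the groups do not overlap at any of the 16.

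The largest gains in CPM, which are not scaled by gene length, went beyond antigen presentation. Chaperones of the endoplasmic reticulum were among them. Hspa5 (BiP) averaged 2971 ± 401 CPM in mTEChi and 788 ± 166 CPM in mTEClo, Hsp90b1 2893 ± 257 CPM in mTEChi and 1008 ± 69.5 CPM in mTEClo, and Calr, a chaperone that also helps load MHC class I, 2409.8 ± 304 CPM in mTEChi and 918 ± 110.5 CPM in mTEClo. The fold changes were 3.77, 2.87 and 2.63. Srgn, the core protein of granule proteoglycans, was 10-fold higher (2118 ± 276 CPM in mTEChi against 211 ± 17.3 CPM in mTEClo), and Ubd, the ubiquitin-like modifier FAT10, 7.77-fold (2097 ± 228 CPM in mTEChi against 269.9 ± 55 CPM in mTEClo). Hdc, the enzyme that makes histamine, was present at 1052, 1081 and 1361 CPM in mTEChi, against 5.24, 15.1 and 28 CPM in mTEClo. Its rise was 73.6-fold (log2 6.20, SE 0.50).

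Genes of immature and basal mTEC moved the other way. Of 20, 15 were lower and 3 higher, with a median log2 change of -2.05. Ccl21a, a chemokine that draws thymocytes into the medulla and has near-identical copies, was present at 342, 399 and 328 CPM in mTEChi, against 6236, 6913 and 8114 CPM in mTEClo (log2 -4.31, SE 0.23, edgeR adjusted p = 5.75e-10). The basal keratins Krt5 and Krt14 were present at 693, 781 and 567 CPM in mTEChi, against 4974, 5842 and 6906 CPM in mTEClo, and at 243, 258 and 223 CPM in mTEChi, against 2139.9, 2389.5 and 2084 CPM in mTEClo. All 3 genes had no overlap between the groups. Lifr, a cytokine receptor, averaged 72.9 ± 17.5 CPM in mTEChi against 1443 ± 288 CPM in mTEClo. Pdpn, a membrane mucin of basal cells, averaged 26.1 ± 1.82 CPM in mTEChi against 180.1 ± 28.4 CPM in mTEClo. Trp63, the factor of basal epithelium, averaged 99 ± 19.4 CPM in mTEChi against 569 ± 109 CPM in mTEClo. Higher in mTEChi were Tnfrsf11b, Ly6d (170.5 ± 11.7 CPM in mTEChi against 64.4 ± 8.51 CPM in mTEClo) and Col17a1 (73.3 ± 9.9 CPM in mTEChi against 48.7 ± 2.71 CPM in mTEClo). Krt15 (33 ± 2.64 CPM in mTEChi against 28.4 ± 5.7 CPM in mTEClo) and Ackr3 (6.5 ± 2.38 CPM in mTEChi against 7.19 ± 1.44 CPM in mTEClo) were not called.

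Further losses covered the cytoskeleton and secreted proteins. Tagln, an actin-binding protein of contractile cells, was present at 44, 46.4 and 21 CPM in mTEChi, against 1459, 1336 and 1241 CPM in mTEClo, 36.1-fold lower. Myl9, a myosin light chain, averaged 8.39 ± 2.55 CPM in mTEChi against 260.3 ± 22.6 CPM in mTEClo, Acta2, smooth muscle actin, 46 ± 9.17 CPM in mTEChi against 773 ± 63.5 CPM in mTEClo, and Flna, which cross-links actin, 303 ± 101 CPM in mTEChi against 2867 ± 438 CPM in mTEClo. Igfbp5, a growth factor binding protein, averaged 252 ± 34.9 CPM in mTEChi against 3023 ± 626 CPM in mTEClo, and the lysosomal protease Ctsl, which cortical epithelium also uses, 158 ± 26.8 CPM in mTEChi against 2408 ± 449 CPM in mTEClo. The lipid carrier Apoe (121 ± 26.2 CPM in mTEChi against 1876 ± 233 CPM in mTEClo) and complement C3 (539.96 ± 134 CPM in mTEChi against 2187 ± 303 CPM in mTEClo) were lower as well. The hedgehog co-receptors Gas1 and Boc were among the largest falls by fold, at 11.1 ± 2.12 CPM in mTEChi against 371 ± 4.71 CPM in mTEClo and 13 ± 2.64 CPM in mTEChi against 324 ± 42.5 CPM in mTEClo. With them stood the matrix proteins Mgp (6.73 ± 0.605 CPM in mTEChi against 190.2 ± 41 CPM in mTEClo) and Ccn1 (38.6 ± 3.66 CPM in mTEChi against 914 ± 192 CPM in mTEClo).

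Genes that work with Aire mostly did not rise with it. Of 21 listed partners and elongation factors, 4 were higher, 14 lower and 3 not called, with a median log2 change of -0.43 that was -0.21 with library totals as scaling, where 10 were lower. Aire itself is 1 of the 4. Sirt1, a deacetylase that acts on Aire, was present at 461, 507 and 490.5 CPM in mTEChi, against 41.6, 43.1 and 36.8 CPM in mTEClo, 12-fold higher (edgeR adjusted p = 2.38e-11). Top2a (146 ± 11.5 CPM in mTEChi against 43.7 ± 24.1 CPM in mTEClo) and Parp1 (86.4 ± 1.85 CPM in mTEChi against 57.9 ± 5.55 CPM in mTEClo) were the others that were higher, and Top2a is also a gene of dividing cells. Lower were Top2b (127 ± 14.9 CPM in mTEChi against 247 ± 16.9 CPM in mTEClo), a topoisomerase that Aire binds, the histone chaperone Daxx (35.7 ± 1.72 CPM in mTEChi against 59.5 ± 3.03 CPM in mTEClo) and Atf7ip (112 ± 18.3 CPM in mTEChi against 189.9 ± 14.6 CPM in mTEClo), the partner of the methyl-CpG binder Mbd1. Prkdc (36.8 ± 1.4 CPM in mTEChi against 35.1 ± 3.87 CPM in mTEClo) and Ccnt1 (64.1 ± 4.2 CPM in mTEChi against 56.7 ± 7.55 CPM in mTEClo), a subunit of the elongation factor P-TEFb, were not called.

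Tissue-restricted antigens rose in list after list. Scarce members could pass the filter on low counts through mTEChi alone, so the counts of antigen lists describe the members that passed. Amy2b and Cpa1 of the pancreas and islet list, Mog of the nervous system list and Tnp1 of the reproductive tract list did not pass. Of 17 Aire-dependent antigens 15 were higher and 2 lower, with a median log2 change of 5.61. Csn2, the milk protein beta-casein, was present at 746, 806 and 776 CPM in mTEChi, against 3.24, 5 and 7.41 CPM in mTEClo, 153-fold higher. Fabp9, a fatty acid binding protein of testis, averaged 45.1 ± 8.66 CPM in mTEChi against 0.928 ± 0.0556 CPM in mTEClo, and Pcp4, a Purkinje cell protein, 31.8 ± 3.79 CPM in mTEChi against 0.133 ± 0.0126 CPM in mTEClo. The neutrophil proteins S100a8 (183 ± 20.2 CPM in mTEChi against 1.42 ± 0.173 CPM in mTEClo) and S100a9 (81.8 ± 12.2 CPM in mTEChi against 2.23 ± 0.213 CPM in mTEClo) were higher too, beside the myeloid markers given above. The exceptions were Gnat3, a G protein of taste and tuft cells, at 9.52 ± 3.48 CPM in mTEChi against 87.2 ± 16.6 CPM in mTEClo, and Wfdc18 at 212 ± 16.1 CPM in mTEChi against 391 ± 87.9 CPM in mTEClo. Fezf2-dependent antigens gave 12 higher and 1 lower of 13, with a median of 4.93. Apob, the core protein of plasma lipoprotein particles, averaged 139 ± 12.3 CPM in mTEChi and 0.32 ± 0.0579 CPM in mTEClo. Coch, a protein of the inner ear, averaged 78 ± 13.8 CPM in mTEChi against 0.876 ± 0.294 CPM in mTEClo, and Maoa, an amine oxidase, 37.7 ± 6 CPM in mTEChi against 5.11 ± 0.683 CPM in mTEClo. Crp, an acute-phase protein, was lower at 26 ± 2.03 CPM in mTEChi against 133 ± 20.8 CPM in mTEClo.

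**Figure D3:**
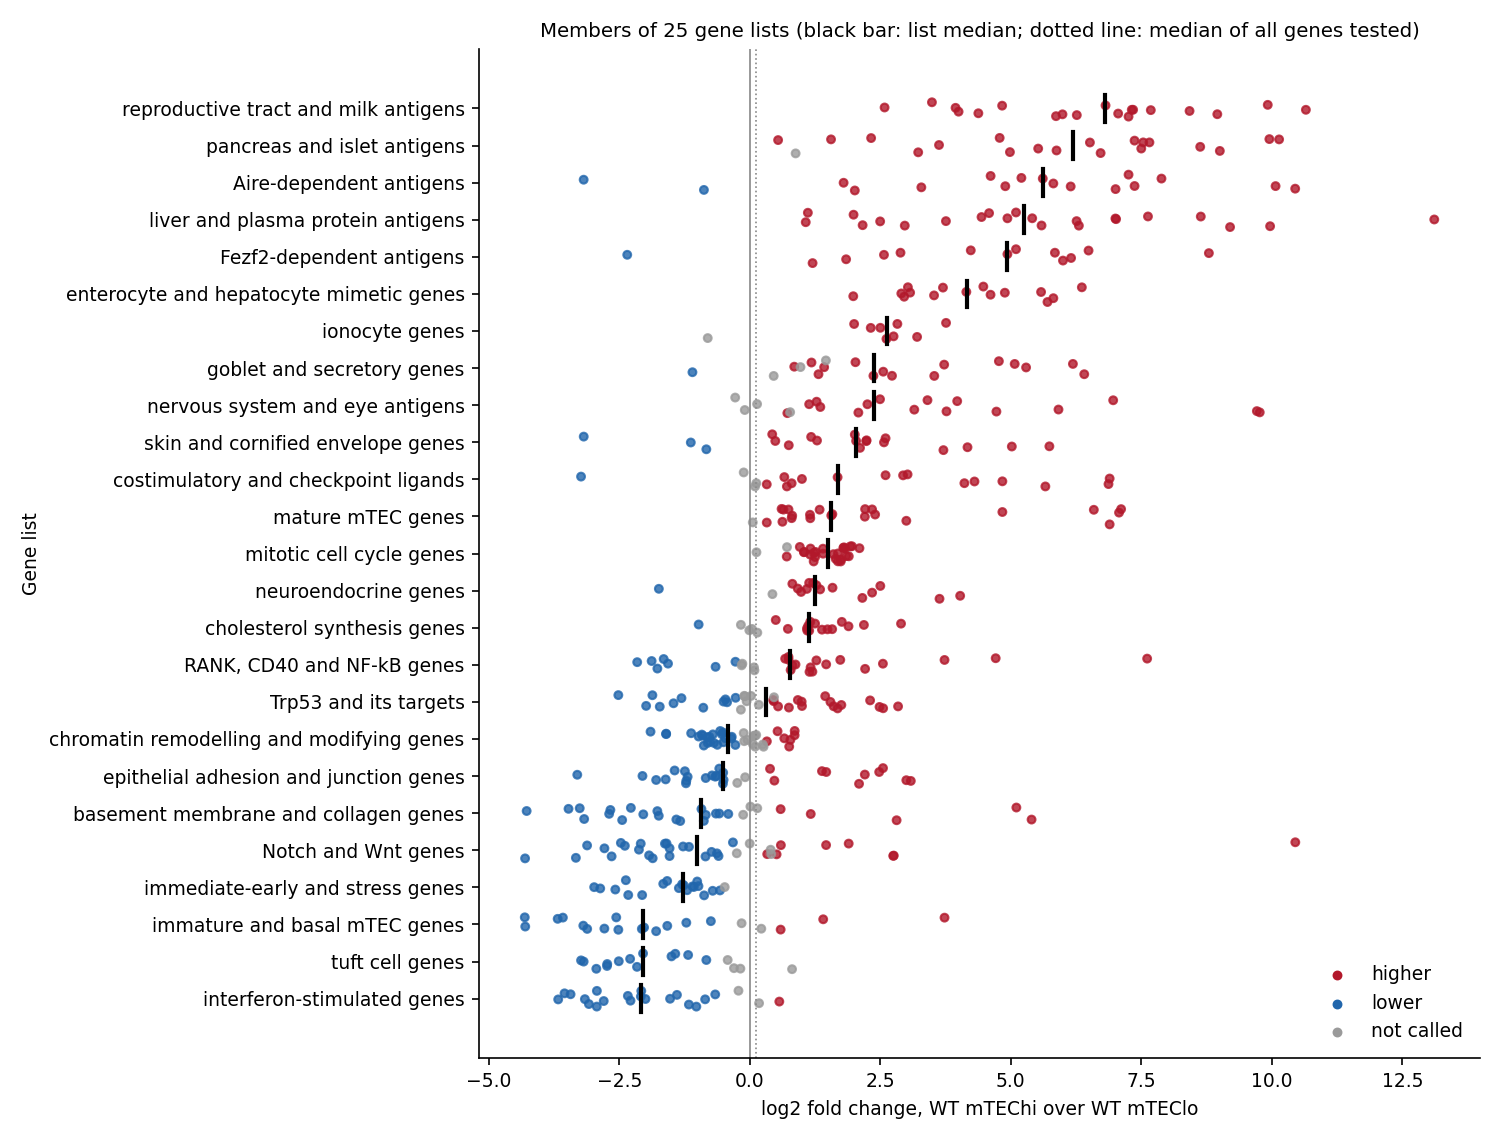
Log2 fold change of each tested member (points) of 25 gene lists, WT mTEChi over WT mTEClo; red members were called higher, blue lower, grey not called. Black bars are list medians, from 6.81 for reproductive tract and milk antigens to -2.09 for interferon-stimulated genes; the dotted line is the median of all genes tested, 0.12.

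By tissue, all 22 liver and plasma proteins were higher, with a median log2 change of 5.25. Fga, Fgb and Fgg encode the chains of fibrinogen and lie side by side on chromosome 3. Fga was present at 27.4, 30.7 and 29.9 CPM in mTEChi, against 0, 0 and 0 CPM in mTEClo, at least 1042-fold higher when 3 fragments over the mTEClo group are taken as the floor. Fgg averaged 84.3 ± 9.67 CPM in mTEChi and 0.68 ± 0.196 CPM in mTEClo and Apoa1, of high-density lipoprotein, 77.8 ± 33.9 CPM in mTEChi and 1.05 ± 0.327 CPM in mTEClo. Of 20 pancreas and islet genes tested 19 were higher and Ctrl, a digestive protease, was not called (1.69 ± 0.504 CPM in mTEChi against 0.913 ± 0.0302 CPM in mTEClo). The median was 6.19, or 4.88 with genes at 0 in mTEClo set to their least fold. Ins2, insulin, was present at 7.49, 10.3 and 12.6 CPM in mTEChi, against 0.0236, 0 and 0.235 CPM in mTEClo, with 1180 fragments over the mTEChi libraries against 6 over those of mTEClo. Gad1, the islet and brain enzyme that makes GABA, averaged 37 ± 2.67 CPM in mTEChi against 0.656 ± 0.171 CPM in mTEClo, glucagon (Gcg) 16.4 ± 3.45 CPM in mTEChi against 0.67 ± 0.556 CPM in mTEClo and pancreatic polypeptide (Ppy) 16.1 ± 7.13 CPM in mTEChi against 0.0698 ± 0.0833 CPM in mTEClo.

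All 19 reproductive tract and milk genes tested were higher (median 6.81, or 6.26 with genes at 0 set to their least fold). Among them Csn1s1, a casein, averaged 9.62 ± 0.743 CPM in mTEChi against 0.125 ± 0.0138 CPM in mTEClo and Zp2, of the egg coat, 32.6 ± 3.7 CPM in mTEChi against 2.09 ± 0.567 CPM in mTEClo. Crisp1, a secretory protein of the epididymis, and Csn1s2a, a casein, averaged 12.3 and 20.4 CPM in mTEChi and had 1 fragment each in mTEClo. Nervous system and eye genes gave 16 higher and none lower of 20 (median 2.37). The lens crystallin Cryaa averaged 39.2 ± 7.66 CPM in mTEChi against 0.327 ± 0.202 CPM in mTEClo, and the growth cone protein Gap43 4.69 ± 0.509 CPM in mTEChi against 0.0703 ± 0.0238 CPM in mTEClo. The acetylcholine receptor subunit Chrna1 averaged 15 ± 1.7 CPM in mTEChi against 1.45 ± 0.338 CPM in mTEClo and myelin basic protein (Mbp) 106 ± 4.5 CPM in mTEChi against 41.5 ± 2.32 CPM in mTEClo. Cryab and Mag were not called, at 33.3 ± 5.85 CPM in mTEChi against 40.6 ± 3.86 CPM in mTEClo and 8.49 ± 2.06 CPM in mTEChi against 7.77 ± 3 CPM in mTEClo. Skin and cornified envelope genes gave 16 higher and 3 lower of 19 (median 2.03), while their summed level overlapped, at 949 to 1166 CPM in mTEChi and 1063 to 1381 CPM in mTEClo. Krt10, a keratin of differentiating skin, averaged 112 ± 27.7 CPM in mTEChi against 27.9 ± 4.19 CPM in mTEClo, and Ivl, involucrin, 11.3 ± 2.1 CPM in mTEChi against 2.75 ± 0.111 CPM in mTEClo. Sprr2a1, which has near-identical copies, went the other way at 74.9 ± 5 CPM in mTEChi against 681 ± 190.2 CPM in mTEClo, as did Krtdap at 32.8 ± 11.3 CPM in mTEChi against 72.2 ± 6.72 CPM in mTEClo.

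Leaving out predicted genes and pseudogenes, the 15 largest rises by fold among genes of at least 1 CPM over the 6 libraries were all at 0 in mTEClo. They came from many tissues. After Fga stood Amtn, a protein of tooth enamel, which was present at 24.7, 19 and 37.5 CPM in mTEChi, against 0, 0 and 0 CPM in mTEClo and at least 906-fold higher. Clec4f, a lectin of liver macrophages, averaged 15.9 CPM in mTEChi and was at least 546-fold higher. Adipoq, the fat hormone adiponectin, averaged 14.4 CPM (at least 497-fold), and Slc17a6, a vesicular glutamate transporter of neurons, 13 CPM (at least 464-fold). Il22, a cytokine of lymphoid cells, averaged 12.8 CPM and Tectb, of the inner ear, 12.8 CPM. Ghsr, the ghrelin receptor, averaged 10.2 CPM, Crhr1, a receptor of the stress hormone CRH, 10.1 CPM, and Bcan, a brain proteoglycan, 9.73 CPM. The least folds of the 15 ran from 323 for Dppa1 to 1042 for Fga. The largest falls by fold included the bitter taste receptors Tas2r102 and Tas2r118, with 4 and 10 fragments over the mTEChi libraries against 318 and 428 over those of mTEClo.

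The promoters of these genes were read from RefSeq on GRCm38.p6, the build of mm10, and 6 are shown to let the letters behind the counts below be seen. Each run is the 250 bases before the start, 5′ to 3′ on the gene's strand, with CG and TATAAA in capitals. Amtn (chr5:88375858-88376107, plus strand), Adipoq (chr16:23146286-23146535, plus strand) and Crisp1 (chr17:40319208-40319457, minus strand) were among the genes that rose. Aire (chr10:78043611-78043860, minus strand) was higher in mTEChi, and Jun (chr4:95052223-95052472, minus strand) and Trp53 (chr11:69580109-69580358, plus strand) were lower in mTEChi.
Amtn: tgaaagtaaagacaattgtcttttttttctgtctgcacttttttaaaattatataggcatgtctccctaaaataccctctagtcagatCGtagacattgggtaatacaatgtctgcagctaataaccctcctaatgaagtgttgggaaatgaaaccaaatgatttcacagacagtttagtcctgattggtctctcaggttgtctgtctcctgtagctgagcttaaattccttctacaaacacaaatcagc
Adipoq: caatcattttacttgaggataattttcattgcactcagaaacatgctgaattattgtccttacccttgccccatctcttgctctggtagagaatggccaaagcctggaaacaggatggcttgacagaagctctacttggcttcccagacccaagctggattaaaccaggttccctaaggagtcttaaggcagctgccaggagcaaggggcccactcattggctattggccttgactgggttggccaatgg
Crisp1: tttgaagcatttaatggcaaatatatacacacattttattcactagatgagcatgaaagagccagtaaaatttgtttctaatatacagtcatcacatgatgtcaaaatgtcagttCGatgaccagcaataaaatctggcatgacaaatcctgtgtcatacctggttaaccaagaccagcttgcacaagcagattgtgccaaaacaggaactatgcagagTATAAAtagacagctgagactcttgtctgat
Aire: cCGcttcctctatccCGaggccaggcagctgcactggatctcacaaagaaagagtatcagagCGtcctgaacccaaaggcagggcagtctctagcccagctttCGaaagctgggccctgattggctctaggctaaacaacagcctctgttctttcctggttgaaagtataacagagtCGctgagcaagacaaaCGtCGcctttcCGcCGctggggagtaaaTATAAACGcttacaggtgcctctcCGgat
Jun: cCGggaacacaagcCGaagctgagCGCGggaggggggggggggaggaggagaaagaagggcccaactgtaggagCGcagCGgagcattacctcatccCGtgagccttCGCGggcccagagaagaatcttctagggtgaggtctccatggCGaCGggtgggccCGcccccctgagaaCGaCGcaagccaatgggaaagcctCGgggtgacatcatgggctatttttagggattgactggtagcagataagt
Trp53: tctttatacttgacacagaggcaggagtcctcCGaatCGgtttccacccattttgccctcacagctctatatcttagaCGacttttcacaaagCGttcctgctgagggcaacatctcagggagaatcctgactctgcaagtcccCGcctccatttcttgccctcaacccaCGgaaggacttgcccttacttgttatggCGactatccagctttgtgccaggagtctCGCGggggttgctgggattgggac
The stretches of Amtn, Adipoq and Crisp1 hold 1, 0 and 1 CG, against 11, 15 and 9 in those of Aire, Jun and Trp53. TATAAA is present in that of Crisp1, starting 31 bases before the start, and in that of Aire, starting 29 bases before it.

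The promoters shown were not picked by rule. By CG count Aire, which was higher in mTEChi, stood with Jun and Trp53, which were lower. Sets by direction were compared over the genes with a listed promoter. RefSeq gave exactly 1 start for 11915 of the 18996 protein-coding genes tested, and features were taken from 300 bases, 250 before and 50 after it. The ratio of observed to expected CpG had a median of 0.308 among 3793 genes over 2-fold higher in mTEChi and of 0.666 among 1045 genes over 2-fold lower. It was 0.778 among 4341 genes called with less than that, 0.771 among 2736 genes not called and 0.674 over all 11915. The set that was lower thus lay near the value over all genes, and the set that was higher lay below it. A ratio of at least 0.6 was found in 25.8% of the genes that were higher, 59.1% of those that were lower and 56.8% of all. Among 627 genes with no fragment in mTEClo the median ratio was 0.191. TATAAA on the gene's strand 45 to 16 bases before the start was found in 6.83% of the genes higher over 2-fold, 2.01% of those lower and 3.11% of all. Searched on both strands over the 300 bases, TATAAA was found in 17.9, 7.18 and 10.7% of these sets. Level was not matched between these sets.

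**Figure D4:**
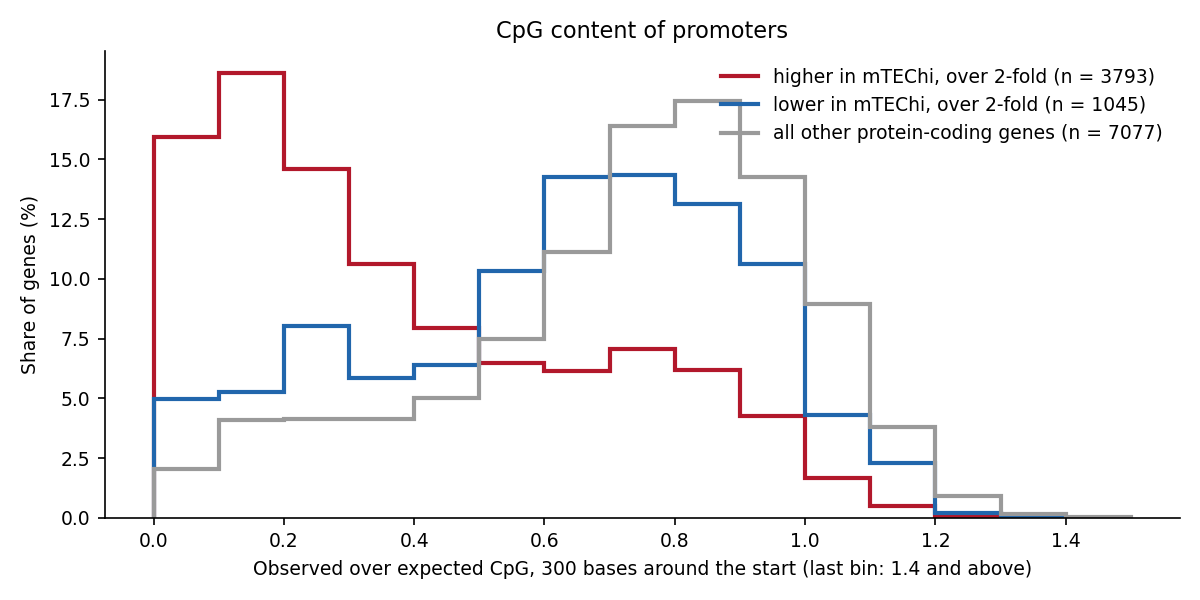
Share of protein-coding genes (%) by the ratio of observed to expected CpG in the 300 bases around the start, for genes over 2-fold higher in mTEChi (red), over 2-fold lower (blue) and all others (grey). The red curve peaks at low ratios (median 0.308), while the blue curve (median 0.666) spreads to higher ones.

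Whole gene families of peripheral tissues rose together. Every tested member was higher among 27 kallikreins (secreted serine proteases), 23 alpha-defensins (gut antimicrobial peptides), 21 major urinary proteins (pheromone carriers made by liver), 20 UDP glucuronosyltransferases (detoxifying enzymes), 20 late cornified envelope proteins, 13 Spink protease inhibitors, 12 hair keratin-associated proteins and 9 cytochrome P450 family 3 genes. Their median log2 changes were 4.64, 7.45, 7.99, 3.28, 5.30, 5.73, 5.47 and 6.80. Many members had no fragment in mTEClo, 16 of the alpha-defensins and 14 of the major urinary proteins among them. With such genes at their least fold the medians, in the same order, were 4.64, 5.54, 5.25, 3.25, 4.87, 3.73, 4.18 and 5.95. Members could pass the filter on low counts through mTEChi alone, so these counts describe the members that passed. Near-identical copies among defensins, kallikreins and urinary proteins make the split between their members uncertain. Klk4, a kallikrein of tooth enamel, averaged 46.2 ± 11.4 CPM in mTEChi against 0.0619 ± 0.0875 CPM in mTEClo, Klk1b11 21.7 ± 0.397 CPM in mTEChi against 0.226 ± 0.105 CPM in mTEClo, and Mup4 3.57 CPM in mTEChi with no fragment in mTEClo. Of 24 beta-defensins 23 were higher and Defb1 was lower (10.5 ± 0.373 CPM in mTEChi against 17.8 ± 2.65 CPM in mTEClo). The table lists 351 vomeronasal receptor genes and pseudogenes. Only 62 genes passed the filter, of which 53 were higher and 3 lower (median log2 5.64, or 3.64 with genes at 0 set to their least fold). Vmn2r3 averaged 4.84 CPM in mTEChi with no fragment in mTEClo.

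Receptors and ion channels of neurons were mostly higher as well. Of 19 GABA receptor subunits 18 were higher (median log2 4.36), of 21 glutamate receptor subunits 17 (3.51), and of 97 potassium channel genes 70 were higher and 17 lower (2.30). Grin2c, an NMDA receptor subunit, averaged 166 ± 8.84 CPM in mTEChi and 2.02 ± 0.762 CPM in mTEClo. Kcnq3, a channel of neurons, went the other way, at 74.8 ± 15.4 CPM in mTEChi against 366 ± 71.3 CPM in mTEClo. Of 49 keratins 34 were higher and 7 lower (median 2.45), while their summed level was lower, at 5042 to 5503 CPM in mTEChi against 14100 to 17530 CPM in mTEClo. Krt84, a hair keratin, averaged 32.4 ± 3.07 CPM in mTEChi against 1.27 ± 0.216 CPM in mTEClo, while Krt7, a keratin of simple epithelium, fell to 199 CPM in mTEChi, against 1303 CPM in mTEClo. Hox genes, which give body position to cells, showed 30 higher and 8 lower of 40 (median 5.01, or 4.12 with genes at 0 set to their least fold). The ones that were lower included Hoxa3, needed to form the thymus, which was present at 1.93, 1.67 and 1.59 CPM in mTEChi, against 24.8, 23.7 and 23.5 CPM in mTEClo, and Hoxa2 (1.54 ± 0.53 CPM in mTEChi against 19.6 ± 1.77 CPM in mTEClo). Hoxc11, of the hind end, averaged 15.1 ± 2.16 CPM in mTEChi against 0.288 ± 0.134 CPM in mTEClo, and Hoxb9 14.1 ± 1.08 CPM in mTEChi against 0.156 ± 0.0728 CPM in mTEClo. Small proline-rich proteins gave 10 higher and 3 lower of 14, with Sprr1b at 21.1 ± 3.57 CPM in mTEChi against 0.421 ± 0.214 CPM in mTEClo and Sprr2a2 at 75 ± 3.11 CPM in mTEChi against 689 ± 189 CPM in mTEClo.

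Families that fell were fewer. The table lists 35 bitter taste receptor genes and pseudogenes. All 28 receptors tested were lower, with a median log2 change of -4.05. Their summed level was 3.9 to 6.96 CPM in mTEChi, against 54.1 to 72.2 CPM in mTEClo. Members this scarce could pass the filter on low counts through mTEClo alone, so the count describes the members that passed. Tas2r105, the receptor for cycloheximide in mice, was present at 0.488, 0.433 and 0.289 CPM in mTEChi, against 5.43, 5.39 and 6.05 CPM in mTEClo. Of 391 Zfp zinc finger genes 267 were lower and 43 higher (median -0.59), and with library totals as scaling 202 were lower and 63 higher. Of 57 clustered protocadherins, adhesion molecules chosen by promoter in neurons, 41 were lower and 14 higher (median -0.80). Pcdhb17 averaged 5.74 ± 0.583 CPM in mTEChi against 23.6 ± 1.38 CPM in mTEClo, while Pcdhac2, at the end of the alpha cluster, averaged 4.56 ± 0.407 CPM in mTEChi against 1.88 ± 0.418 CPM in mTEClo. Of 81 ribosomal protein genes 54 were lower and 1 higher, with a median of -0.39. The count of lower genes was 26 with library totals as scaling, where the median was -0.17. The exception was Rpl3l, the ribosomal protein of muscle, at 0.469 ± 0.222 CPM in mTEChi against 0.0549 ± 0.0489 CPM in mTEClo.

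**Figure D5:**
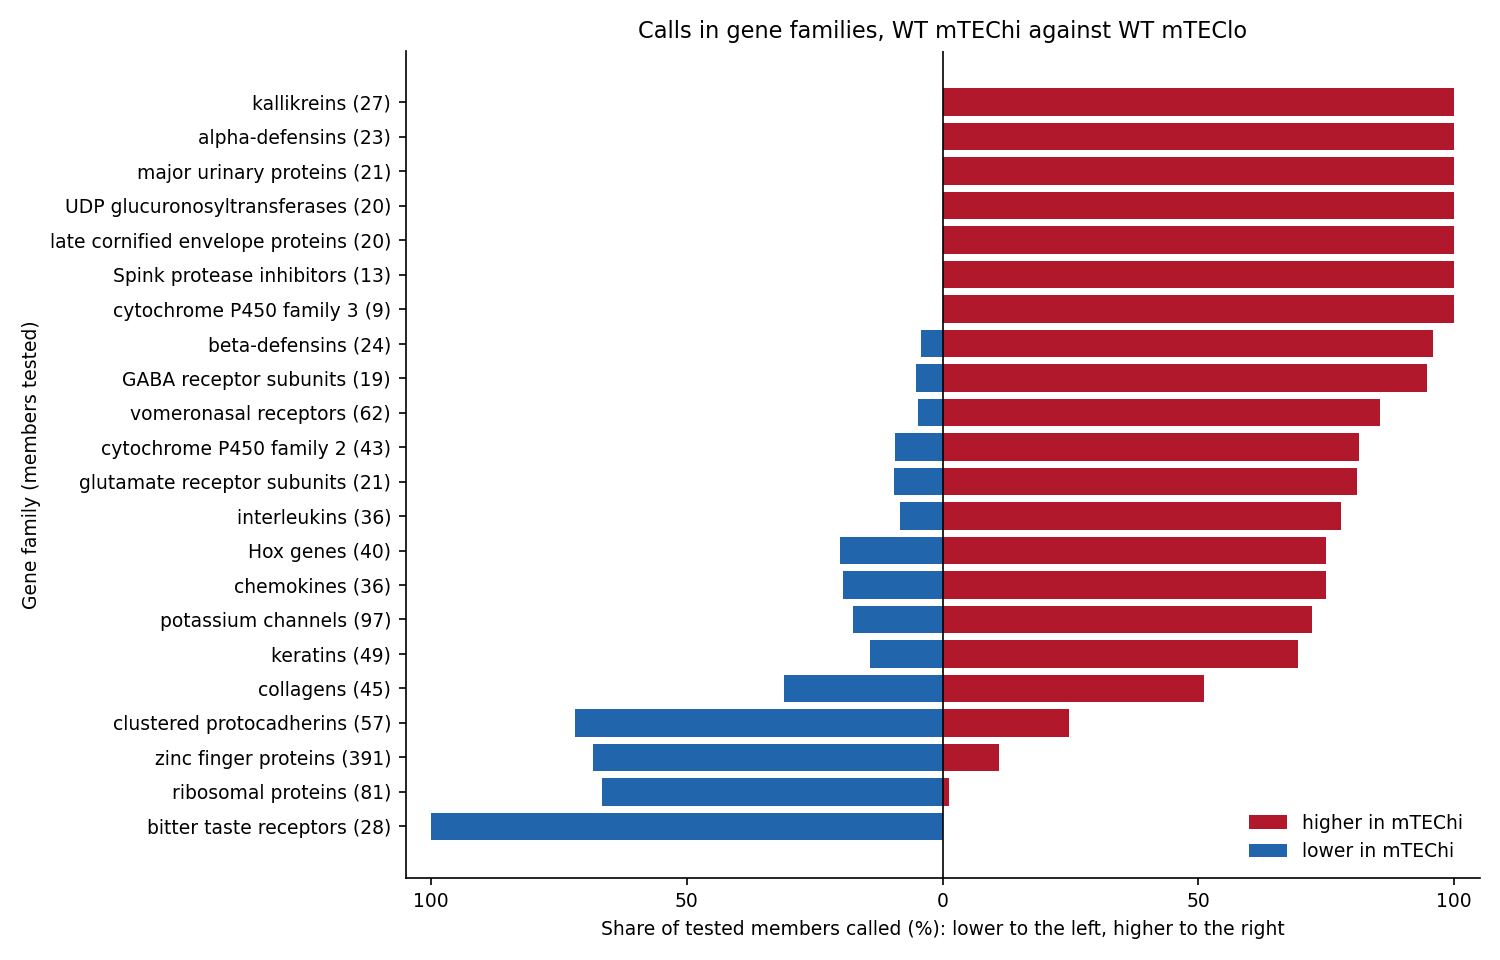
Share of tested members called higher (red, to the right) or lower (blue, to the left) in WT mTEChi, for 22 gene families with the number of members tested in brackets. Families of peripheral tissues reach 100% higher, and bitter taste receptors reach 100% lower. Scarce members could pass the low-count filter through mTEChi or mTEClo alone, so these shares describe the members that passed.

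Genes higher in mTEChi lay in runs when the tested protein-coding genes were put in chromosome order. Of these genes 34.8% were called higher with a fitted fold of at least 2. In that order, 38 runs of at least 10 in a row were made up of such genes. Genes that failed the low-count filter and genes of other classes were skipped, so members of a run need not be direct neighbours. Scarce genes could pass the filter through mTEChi alone, so the runs describe the genes that passed. The longest, of 36 genes on chromosome 8 (19194357 to 21735471), ran from Defb14 to Defa24 through the defensin clusters. A run of 30 genes on chromosome 5 (86889767 to 88506049) joined glucuronosyltransferases, sulfotransferases, caseins and enamel proteins from Ugt2b34 to Enam. Runs of 27 genes on chromosome 7 (43690418 to 44246695) and 26 on chromosome 11 (99232761 to 100121566) held the kallikreins and a cluster of keratins. The late cornified envelope cluster gave a run of 25 on chromosome 3 (92620081 to 93149819), and the major urinary proteins a run of 21 on chromosome 4 (59956804 to 62087342). A run of 17 on chromosome 14 (55941451 to 56525032) began with Cma1 and held mast cell proteases and granzymes. Clusters of duplicated genes share sequence, so their members are not independent.

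Programmes of mimetic cells split by type. Of 17 tuft cell genes 13 were lower and none higher (median log2 -2.05), although 1 was higher under 6 of 14 alternative settings. Trpm5, the cation channel of taste transduction, was present at 37.4, 26.7 and 27.3 CPM in mTEChi, against 165, 125 and 159.9 CPM in mTEClo, and Dclk1, a kinase that marks tuft cells, at 51, 39.7 and 36.6 CPM in mTEChi, against 294, 255 and 299 CPM in mTEClo. Alox5 (12.6 ± 2.82 CPM in mTEChi against 97.3 ± 11.8 CPM in mTEClo) and Alox5ap (4.76 ± 0.561 CPM in mTEChi against 31.8 ± 9.92 CPM in mTEClo), which start leukotriene synthesis, were lower. Pou2f3, the factor that specifies tuft cells, was lower at 22.1 ± 3.2 CPM in mTEChi against 39.5 ± 1.8 CPM in mTEClo. The cytokine Il25, made by tuft cells, averaged 0.878 ± 0.175 CPM in mTEChi against 8.35 ± 2.59 CPM in mTEClo. Gfi1b, which was called higher under those 6, averaged 6.28 ± 0.532 CPM in mTEChi and 3.61 ± 0.623 CPM in mTEClo and was not called as reported (edgeR adjusted p = 0.0762), and neither were Il17rb and Ltc4s.

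Other mimetic lists held mostly genes that were higher. All 15 enterocyte and hepatocyte genes were higher (median 4.15), among them the factors Hnf4g (20.7 ± 1.04 CPM in mTEChi against 2.46 ± 0.098 CPM in mTEClo) and Cdx1 (301 ± 34.2 CPM in mTEChi against 12.4 ± 3.07 CPM in mTEClo). The intestinal apolipoprotein Apoa4 was present at 232, 287 and 339 CPM in mTEChi, against 2.83, 6.5 and 6.1 CPM in mTEClo, and Reg3g, an antibacterial lectin, averaged 528 ± 71.1 CPM in mTEChi and 45.6 ± 12.7 CPM in mTEClo. Of 9 ionocyte genes 8 were higher, with the factor Foxi1 at 23.2 ± 4.5 CPM in mTEChi against 3.82 ± 0.638 CPM in mTEClo and the chloride channel Cftr at 31.1 ± 0.922 CPM in mTEChi against 7.73 ± 1.13 CPM in mTEClo. Goblet and secretory genes gave 15 higher and 1 lower of 19, with the mucins Muc5ac at 125 ± 4.91 CPM in mTEChi against 3.56 ± 1.55 CPM in mTEClo and Muc2 at 21.1 ± 3.62 CPM in mTEChi against 0.304 ± 0.117 CPM in mTEClo. The exception was Clca3a2 at 197 ± 24.7 CPM in mTEChi against 423 ± 24.4 CPM in mTEClo. Neuroendocrine genes gave 14 higher and 1 lower of 16. The factor Insm1 was present at 239, 283 and 282 CPM in mTEChi, against 11.9, 19.7 and 17.8 CPM in mTEClo. Microfold genes gave 10 higher and 2 lower of 12, with Ccl20 at 99.8 ± 13.3 CPM in mTEChi against 15.8 ± 4.48 CPM in mTEClo. The surface receptor Gp2 was lower (54.2 ± 14 CPM in mTEChi against 76.6 ± 15.2 CPM in mTEClo), and this call was lost under some alternatives. Ciliated cell genes gave 10 higher and 2 lower of 14, with Mcidas, the factor that starts multiciliation, at 19 ± 0.471 CPM in mTEChi against 0.147 ± 0.18 CPM in mTEClo and Foxj1 at 81.7 ± 5.4 CPM in mTEChi against 29.1 ± 12 CPM in mTEClo.

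Muscle genes were mixed, 13 higher and 4 lower of 20. Embryonic and perinatal myosins were higher, Myh3 at 55 ± 8.55 CPM in mTEChi against 0.562 ± 0.651 CPM in mTEClo and Myh8 at 24 ± 1.89 CPM in mTEChi against 0.993 ± 0.388 CPM in mTEClo, and titin (Ttn) averaged 210.3 ± 39.6 CPM in mTEChi against 36.8 ± 3.67 CPM in mTEClo. Skeletal actin (Acta1, 3.27 ± 0.444 CPM in mTEChi against 14.3 ± 1.43 CPM in mTEClo) and desmin (Des, 36.1 ± 2.15 CPM in mTEChi against 89.9 ± 3.54 CPM in mTEClo) were lower, and the muscle factor Myog was not called (17.3 ± 0.775 CPM in mTEChi against 18.7 ± 2.45 CPM in mTEClo). Lineage transcription factors gave 12 higher and 14 lower of 28, with a median log2 change of -0.20 that turned to 0.01 with library totals as scaling. Among those higher were Irf4 (122 ± 6.11 CPM in mTEChi against 20.8 ± 1.72 CPM in mTEClo) and Irf8 (283 ± 10.6 CPM in mTEChi against 86.6 ± 9.56 CPM in mTEClo), factors of immune cells, and Tbx3 (41.9 ± 1.8 CPM in mTEChi against 1.51 ± 0.67 CPM in mTEClo). Among those lower were Id3 (15.8 ± 0.211 CPM in mTEChi against 139 ± 30.3 CPM in mTEClo) and Id2 (30.8 ± 2.13 CPM in mTEChi against 129.8 ± 8.15 CPM in mTEClo), which block basic helix-loop-helix factors. Pax1, of the pharyngeal pouches, averaged 59.4 ± 1.59 CPM in mTEChi against 227 ± 16.6 CPM in mTEClo, and Sox9 averaged 64 ± 5.67 CPM in mTEChi against 179.6 ± 12.6 CPM in mTEClo.

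Signals that T cells read from mTEC were mostly higher when counted by gene. Of 19 costimulatory and checkpoint ligands 15 were higher and 1 lower (median log2 1.68). Beside Cd80 stood Cd86 (35.4 ± 9.72 CPM in mTEChi against 0.264 ± 0.235 CPM in mTEClo) and Icosl, the ICOS ligand (539 ± 40.5 CPM in mTEChi against 70.5 ± 8.96 CPM in mTEClo). They were joined by Cd70 (23.9 ± 6.67 CPM in mTEChi against 1.36 ± 0.165 CPM in mTEClo) and Tnfsf4, the OX40 ligand (8.72 ± 1.88 CPM in mTEChi against 0.171 ± 0.093 CPM in mTEClo). Lgals9, galectin-9, was lower at 56.7 ± 13.2 CPM in mTEChi against 535 ± 102 CPM in mTEClo. Ccl22 and Ccl17, which attract CCR4-bearing thymocytes, were present at 272, 419 and 364 CPM in mTEChi, against 0.756, 4.14 and 2.77 CPM in mTEClo, and at 15, 20.8 and 21.4 CPM in mTEChi, against 0.165, 0.278 and 0.0938 CPM in mTEClo. Dendritic cells make Cd86, Ccl17 and Ccl22 as well, and the myeloid markers given above moved the same way. Of 26 chemokines and cytokines 16 were higher and 7 lower, while their summed level was lower, at 2502 to 2823 CPM in mTEChi against 8250 to 9834 CPM in mTEClo. Cxcl9 averaged 317 ± 14.4 CPM in mTEChi against 62.5 ± 9.06 CPM in mTEClo and Ccl5 79.8 ± 25.9 CPM in mTEChi against 5.98 ± 1.37 CPM in mTEClo. Il7, the cytokine that thymocytes need, was lower at 79, 83.9 and 59.3 CPM in mTEChi, against 455, 323 and 362 CPM in mTEClo, and so was Cxcl12, a chemokine of the cortex, at 20.7 ± 1.99 CPM in mTEChi against 202 ± 21.5 CPM in mTEClo. Cxcl10 was not called, at 485 ± 33.4 CPM in mTEChi against 571 ± 147 CPM in mTEClo. In the interleukin family 28 of 36 were higher, with Il12a at 39.8 ± 5.42 CPM in mTEChi against 0.467 ± 0.12 CPM in mTEClo and Il23a at 135 ± 12.4 CPM in mTEChi against 16.2 ± 1.27 CPM in mTEClo.

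The pathway from RANK and CD40 to NF-kB changed in its parts. Of 28 genes 17 were higher and 7 lower (median 0.76). Cd40 was 4.62-fold higher (198 ± 30.5 CPM in mTEChi against 43 ± 1.94 CPM in mTEClo), as was the adaptor Traf6 at 150.3 ± 18.5 CPM in mTEChi against 54.6 ± 5.81 CPM in mTEClo and the NF-kB subunit Rel at 85.4 ± 2.72 CPM in mTEChi against 25.6 ± 5.39 CPM in mTEClo. The lymphotoxin receptor Ltbr was lower (26.6 ± 1.02 CPM in mTEChi against 90.8 ± 3.47 CPM in mTEClo), together with the TNF receptor Tnfrsf1a (45.1 ± 1.55 CPM in mTEChi against 202 ± 13.3 CPM in mTEClo). The NF-kB subunit Rela (61.8 ± 1.09 CPM in mTEChi against 97.6 ± 2.77 CPM in mTEClo) and the inhibitor Tnfaip3 (72.7 ± 4.82 CPM in mTEChi against 228 ± 22.1 CPM in mTEClo) were lower too. Nfkb1, Map3k14 and Traf2 were not called, at 186 ± 34.6 CPM in mTEChi against 208 ± 35.6 CPM in mTEClo, 74.3 ± 5.91 CPM in mTEChi against 82.1 ± 8.06 CPM in mTEClo and 68.7 ± 5.2 CPM in mTEChi against 64.7 ± 3.16 CPM in mTEClo. The ligands Lta and Tnf averaged 18.8 ± 1.93 CPM in mTEChi against 0.0781 ± 0.072 CPM in mTEClo and 23.3 ± 3.89 CPM in mTEChi against 0.912 ± 0.234 CPM in mTEClo. MHC class I genes were split, near the shares over all genes tested (40.2% higher and 29.4% lower). Of 18 genes of class I presentation 6 (33.3%) were higher and 7 (38.9%) lower, with 3 higher without mTEChi replicate 3. Their median log2 change was -0.17 and turned to 0.04 with library totals as scaling. B2m (4401 ± 319.7 CPM in mTEChi against 5231 ± 394 CPM in mTEClo) and H2-D1 (2169 ± 231 CPM in mTEChi against 2415 ± 178 CPM in mTEClo) were not called. The peptide transporters Tap1 (246 ± 21.9 CPM in mTEChi against 436 ± 33.9 CPM in mTEClo) and Tap2 (155 ± 19.2 CPM in mTEChi against 265 ± 7.58 CPM in mTEClo) and their activator Nlrc5 (94.9 ± 13 CPM in mTEChi against 168 ± 20.2 CPM in mTEClo) were lower.

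Interferon-stimulated genes were lower in mTEChi. Of 22, 19 were lower and 1 higher, with a median log2 change of -2.09, and their summed level was 1576, 1806 and 1494 CPM in mTEChi, against 6151, 7563 and 6004 CPM in mTEClo. Irf7, the factor that amplifies the response, was present at 65.2, 70 and 53.1 CPM in mTEChi, against 474, 609.8 and 516 CPM in mTEClo (log2 -3.09, SE 0.16, edgeR adjusted p = 5e-10). Stat2 averaged 64.3 ± 2.29 CPM in mTEChi against 314 ± 28.9 CPM in mTEClo, Ddx58, which encodes the RNA sensor RIG-I, 29 ± 5.48 CPM in mTEChi against 222 ± 20 CPM in mTEClo, and Ifit3 47 ± 9.76 CPM in mTEChi against 509 ± 126 CPM in mTEClo. Oasl1 was higher at 55.6 ± 6.17 CPM in mTEChi against 37.7 ± 8.38 CPM in mTEClo, and Usp18 and Rsad2 were not called, at 214 ± 27.1 CPM in mTEChi against 249 ± 28.7 CPM in mTEClo and 40.5 ± 2.93 CPM in mTEChi against 35.8 ± 9.95 CPM in mTEClo. Immediate-early and stress genes were lower too, 19 of 20, with none higher and a median of -1.28. Jun was present at 315, 339 and 228 CPM in mTEChi, against 2159, 2439.6 and 1845 CPM in mTEClo, Fos at 195, 222 and 131 CPM in mTEChi, against 1486, 1674 and 1176 CPM in mTEClo, and Egr1 at 269, 298 and 203 CPM in mTEChi, against 1423, 1429 and 1022 CPM in mTEClo. Their groups did not overlap. Tissue digestion is known to induce genes of this list, and cells of both groups went through it; its part in the difference was not tested.

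Trp53 and its targets were split much as all genes tested were. Trp53 RNA was present at 98, 99.5 and 107 CPM in mTEChi, against 137, 136 and 138 CPM in mTEClo, 1.35-fold lower in mTEChi (log2 -0.44, SE 0.08, edgeR adjusted p = 0.000281). Of 34 genes in the list 16 (47.1%) were higher and 11 (32.4%) lower, against 40.2% and 29.4% of all genes tested. The median log2 change was 0.31, against 0.12 over all genes tested. Cdkn1a, the cell cycle inhibitor p21, was present at 162, 182 and 152 CPM in mTEChi, against 48.7, 66.9 and 54.7 CPM in mTEClo, 2.91-fold higher. Mdm2, which degrades p53, averaged 130.5 ± 8.52 CPM in mTEChi and 69.1 ± 0.858 CPM in mTEClo. Other targets that were higher included the death gene Pmaip1 (Noxa, 155 ± 21.2 CPM in mTEChi against 21.6 ± 3.95 CPM in mTEClo), Sesn2 (123 ± 13 CPM in mTEChi against 25 ± 3.01 CPM in mTEClo) and Gadd45a (49.3 ± 5.47 CPM in mTEChi against 14.6 ± 0.482 CPM in mTEClo). Lower were Phlda3 (38.2 ± 8.1 CPM in mTEChi against 152 ± 15.7 CPM in mTEClo), Perp (154 ± 25.3 CPM in mTEChi against 561 ± 53.6 CPM in mTEClo), Btg2 (76.5 ± 14.1 CPM in mTEChi against 211 ± 20.3 CPM in mTEClo) and Xpc (16.6 ± 1.11 CPM in mTEChi against 41.2 ± 3.55 CPM in mTEClo). Many of these genes also answer to other factors, Perp to p63 among them. Mdm4, Trp53inp1 and Apaf1 were not called, at 220.2 ± 12.9 CPM in mTEChi against 248 ± 22.6 CPM in mTEClo, 169 ± 26.5 CPM in mTEChi against 177 ± 17.7 CPM in mTEClo and 51.5 ± 4.76 CPM in mTEChi against 50.8 ± 5.11 CPM in mTEClo.

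Genes of cell division were higher, with spread among the mTEClo libraries. Of 28 mitotic genes 26 were higher and none lower (median log2 1.5), and their summed level was 1069, 1331 and 1103 CPM in mTEChi, against 261, 694 and 410 CPM in mTEClo. Mki67 averaged 231 ± 35 CPM in mTEChi and 97.2 ± 52.5 CPM in mTEClo, Cdk1 47 ± 11.1 CPM in mTEChi and 14.7 ± 5.62 CPM in mTEClo, and Aurka 18.6 ± 2.98 CPM in mTEChi and 4.77 ± 2.65 CPM in mTEClo. Ccnb2 and Foxm1 were not called. Of 29 replication genes 10 (34.5%) were higher and 8 (27.6%) lower, close to the shares over all genes tested (40.2% and 29.4%). E2f2, an activator of the S phase programme, was present at 49, 48.2 and 62 CPM in mTEChi, against 3.35, 6.57 and 6.29 CPM in mTEClo, and Pole, the leading strand polymerase, averaged 29 ± 4.38 CPM in mTEChi against 7.58 ± 1.68 CPM in mTEClo. The helicase subunits Mcm2 (22.5 ± 0.726 CPM in mTEChi against 34.4 ± 5.66 CPM in mTEClo), Mcm4 (33.3 ± 1.6 CPM in mTEChi against 48.1 ± 3.68 CPM in mTEClo) and Mcm7 (25.9 ± 0.256 CPM in mTEChi against 45.4 ± 1.67 CPM in mTEClo) were lower. With library totals as scaling, 4 replication genes were lower. Of 16 genes for inhibitors of cyclin-dependent kinases and retinoblastoma proteins 6 (37.5%) were higher and 5 (31.2%) lower. These shares too were close to those over all genes tested. Cdkn2a averaged 17.8 ± 0.144 CPM in mTEChi against 3.31 ± 1.66 CPM in mTEClo, Cdkn2b 46.9 ± 3.2 CPM in mTEChi against 9.24 ± 2.4 CPM in mTEClo and Cdkn1c 130.1 ± 17.5 CPM in mTEChi against 51.9 ± 7.07 CPM in mTEClo. Cdkn1b was lower at 73.7 ± 6.68 CPM in mTEChi against 109.8 ± 10.2 CPM in mTEClo. Among the cyclins Ccnd2 was higher (664 ± 96.6 CPM in mTEChi against 177 ± 27.8 CPM in mTEClo) and Ccnd1 lower (90.6 ± 1.66 CPM in mTEChi against 161 ± 12.9 CPM in mTEClo).

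Of 18 BCL2 family genes 12 were higher and 3 lower. Survival genes changed in opposite directions, since Bcl2l1, which encodes BCL-XL, was 3.38-fold higher (165 ± 22 CPM in mTEChi against 48.9 ± 4.17 CPM in mTEClo) and Bcl2 was 3.3-fold lower (33.6 ± 5.63 CPM in mTEChi against 111 ± 27.2 CPM in mTEClo). The 3 near-identical Bcl2a1 copies listed were higher, Bcl2a1b at 100.1 ± 14.4 CPM in mTEChi against 8.76 ± 1.31 CPM in mTEClo, and the pro-death gene Hrk averaged 19.2 ± 0.666 CPM in mTEChi against 0.147 ± 0.254 CPM in mTEClo. Chromatin remodelling and modifying genes gave 23 lower and 7 higher of 40 (median -0.42), with 19 lower and 13 higher when library totals set the scale. Mta1, of the NuRD complex, averaged 24.5 ± 1.56 CPM in mTEChi against 91.6 ± 1.96 CPM in mTEClo, the Polycomb protein Cbx2 22.8 ± 2.55 CPM in mTEChi against 69.3 ± 5.76 CPM in mTEClo and the demethylase Kdm5b 73.8 ± 5.02 CPM in mTEChi against 161 ± 7.52 CPM in mTEClo. Ezh2 (38.5 ± 4.63 CPM in mTEChi against 21.3 ± 0.386 CPM in mTEClo), the Polycomb methyltransferase, and the DNA methyltransferase Dnmt3a (148 ± 6.98 CPM in mTEChi against 87.9 ± 8.55 CPM in mTEClo) were higher. The remodelling ATPases Smarca4, Smarca2 and Chd3 were not called, at 224 ± 9.59 CPM in mTEChi against 206 ± 14 CPM in mTEClo, 253 ± 32.7 CPM in mTEChi against 213 ± 43.2 CPM in mTEClo and 288 ± 21.6 CPM in mTEChi against 313 ± 56 CPM in mTEClo.

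Genes for contacts with matrix and neighbours moved in both directions, and the split depended on which genes were counted. Of 27 basement membrane and collagen genes 19 were lower and 5 higher (median log2 -0.93). Over all 45 collagen genes tested, 23 (51.1%) were higher and 14 (31.1%) lower (median log2 0.41), against 40.2% and 29.4% of all genes tested. Col6a1, a collagen VI chain, was present at 66.5, 60.3 and 49.5 CPM in mTEChi, against 1248, 1186 and 990.1 CPM in mTEClo. The laminin chains Lamb1 and Lamb3 averaged 51.3 ± 6.6 CPM in mTEChi against 570.3 ± 56.6 CPM in mTEClo and 53.2 ± 6.61 CPM in mTEChi against 510.3 ± 37.4 CPM in mTEClo. Nid1, which links laminin to collagen IV, was higher at 66.8, 73.2 and 84.6 CPM in mTEChi, against 1.84, 1.83 and 1.6 CPM in mTEClo, as was Col1a1, the fibrillar collagen of fibroblasts, at 84.7 ± 34.8 CPM in mTEChi against 2.47 ± 0.203 CPM in mTEClo. The fibroblast markers were divided by count and lower in summed level in mTEChi, as given above. Of 29 adhesion and junction genes 17 were lower and 10 higher. Cdh3, P-cadherin, averaged 41.6 ± 1.12 CPM in mTEChi against 412 ± 45.4 CPM in mTEClo, Cdh1, E-cadherin, 490.3 ± 5.52 CPM in mTEChi against 1146 ± 33.8 CPM in mTEClo, and Itgb4, of hemidesmosomes, 205 ± 17.7 CPM in mTEChi against 712 ± 48.4 CPM in mTEClo. Tight junction genes were divided, and of all 23 claudins tested 16 were higher and 6 lower (median log2 2.37). The claudin Cldn4 was present at 207, 269.7 and 261 CPM in mTEChi, against 27.7, 34.3 and 30.5 CPM in mTEClo. Higher too were Cldn7 at 174 ± 27.4 CPM in mTEChi against 20.6 ± 4.34 CPM in mTEClo, Cldn3 at 71.3 ± 11.5 CPM in mTEChi against 15.6 ± 4.61 CPM in mTEClo and Ocln, occludin, at 46.9 ± 2.42 CPM in mTEChi against 7.99 ± 0.264 CPM in mTEClo. Cldn8 was lower, at 2.18 ± 0.381 CPM in mTEChi against 9.08 ± 0.167 CPM in mTEClo. The scaffold gene Tjp1 averaged 81 ± 14.1 CPM in mTEChi and 86.3 ± 9.08 CPM in mTEClo and was not called (edgeR adjusted p = 0.543).

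Of 34 Notch and Wnt genes tested 22 were lower and 8 higher (median log2 -1.01). The ligands Jag2 and Dll1 averaged 23.5 ± 1.84 CPM in mTEChi and 237 ± 20.5 CPM in mTEClo, and 11.5 ± 1.02 CPM in mTEChi and 72.3 ± 8.05 CPM in mTEClo. The receptor Notch3 averaged 15.6 ± 0.258 CPM in mTEChi against 81.9 ± 2.51 CPM in mTEClo, its target Hes1 11.6 ± 0.927 CPM in mTEChi against 80.6 ± 11 CPM in mTEClo, and the ligand Wnt4, which raises Foxn1, 57.1 ± 2.31 CPM in mTEChi against 249 ± 20.4 CPM in mTEClo. Dll4, the Notch ligand of the cortex, was higher at 36, 41.5 and 56.5 CPM in mTEChi, against 7.16, 6.37 and 6.38 CPM in mTEClo, and Rspo1, a Wnt agonist, averaged 4.63 CPM in mTEChi with no fragment in mTEClo, at least 166-fold higher. Cholesterol synthesis genes were higher in 15 of 20, with Sc5d lower (49.8 ± 3.93 CPM in mTEChi against 98.4 ± 6.98 CPM in mTEClo). Idi1 averaged 58.4 ± 2 CPM in mTEChi and 7.9 ± 1.19 CPM in mTEClo, and Cyp51 80.4 ± 4.53 CPM in mTEChi and 21.8 ± 2.26 CPM in mTEClo. Their factor Srebf2 was not called, at 189 ± 8.99 CPM in mTEChi against 184 ± 23.4 CPM in mTEClo. Of 19 glycolysis rows 7 were higher and 3 lower, with both genes that share the symbol Aldoa counted. Eno2, the neuronal enolase, averaged 87.3 ± 2.92 CPM in mTEChi against 7.09 ± 1.63 CPM in mTEClo and hexokinase 2 (Hk2) 42 ± 5.02 CPM in mTEChi against 5.25 ± 0.38 CPM in mTEClo, while Hk1 was lower at 64.8 ± 3.86 CPM in mTEChi against 106 ± 10.1 CPM in mTEClo.

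The same maturation step was measured in cHyper mice. There 18648 genes were called, 17037 of them in the same direction as in WT and 55 in the opposite one. A test of the difference between the changes of cHyper and WT called 595 of 28932 genes (2.06%), with 4123 at an unadjusted p under 0.05. Of the 595 genes, 485 changed by less in cHyper than in WT, by the size of the log2 fold change. The count was 354 without WT mTEChi replicate 2 and 387 without WT mTEChi replicate 3, so it depends on single libraries. Aire averaged 1645 CPM in mTEChi and 44.5 CPM in mTEClo of cHyper mice, a log2 change of 5.21 there against 7.07 in WT (difference -1.87, edgeR adjusted p = 0.000941). Krt5 averaged 1336 CPM in mTEChi and 5229 CPM in mTEClo of cHyper mice (log2 -1.97, against -3.12 in WT, edgeR adjusted p of the difference = 0.0313). Of 22 interferon-stimulated genes, 12 differed, and so did 7 of 20 immature and basal genes and 6 of 20 immediate-early genes. Irf7 changed by -1.14 on the log2 scale in cHyper and by -3.09 in WT (edgeR adjusted p of the difference = 0.000392). None of the 28 mitotic, 40 chromatin and 22 liver genes tested passed this test. That does not show that they changed alike.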

How the data were processed

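Polyadenylated RNA of sorted mTEC was sequenced as fragments. The deposited fragment counts per gene, whole numbers that the authors did not normalise, were made on mm10 with featureCounts (Subread 2.0.1), and TopHat2 2.1.1 and SAMtools 1.9 are named beside it, per the submitters' processing notes. Neither the annotation nor the strand setting is stated there, so overlapping or antisense genes, and near-identical copies such as the Ccl21, Mup, Defa and Klk1b genes, are uncertain. The table also held the authors' deposited TPM values, used to compare levels between genes and in no test across genes, and the gene length in kilobases.

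Genes were filtered with edgeR 4.0.16 (filterByExpr by group) and scaled by TMM. The quasi-likelihood fit used all 12 libraries, which share 1 estimate of spread (8 residual degrees of freedom), and p-values were adjusted over all 28932 genes. The 2-fold threshold was tested with glmTreat. The procedure was run on simulated data in which few genes differed, as many up as down. In the real data most genes were called, and more were higher than lower. The simulation therefore cannot check the scaling or the rate of false calls here. For genes at 0 in a group, a least fold was computed from a floor of 3 fragments over the group. This floor covers counting error only.

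The comparison, gene lists and families were chosen with earlier results of these data known. Genes were named by rule: a short list of maturation genes, the 15 largest rises and falls by fold, the 12 largest gains and losses in CPM, up to 6 called members per direction and 3 that were not called from each list, and up to 2 per direction from each family; a few genes the rule names are not reported here. Tas2r119 and the genes at the ends of runs were named after their values were seen, and the promoters shown were picked outside the rule. Biotypes came from GENCODE annotation (28848 of 28932 IDs matched) and promoters from RefSeq. Alternatives were DESeq2 1.42.0, limma-voom (limma 3.58.1), other scalings and filters, a fit of the WT libraries alone, a replicate block and leaving out libraries.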

Additional observations from a re-analysis of the deposited data

Results flagged for a closer look

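Of 263 genes looked up for the text, 36 differed between cHyper and WT in their change from mTEClo to mTEChi. They passed edgeR's test of the difference itself (adjusted p under 0.05). In 30 of the 36 the change was smaller in size in cHyper. Over all genes tested, 595 of 28932 (2.06%) differed, and 485 of those 595 changed by less in cHyper. Many of the 263 were named for large or clear changes in WT, which favours a smaller change in cHyper. Their counts therefore describe only the genes named. The values below are differences in log2 fold change, cHyper minus WT. Among genes that were higher in WT mTEChi, the differences were -3.04 for Gap43, -2.15 for Apob, -1.87 for Aire, -1.54 for Myh8, -1.02 for H2-Eb2 and -0.823 for Irf4. Those of Tectb, Adipoq and Csn1s2a, -5.34, -4.8 and -3.63, rest on 0 or 1 fragment in WT mTEClo and depend on how such counts are fitted.

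Among basal and immature mTEC genes, Krt14, Krt5 and Ccl21a fell by less in cHyper, with differences of 1.1, 1.15 and 1.22. Ly6d and Krt15 rose by more in cHyper, with differences of 1.01 and 2.81. Their log2 changes were 2.42 and 3.03 in cHyper, against 1.4 and 0.218 in WT, where Krt15 was not called. The contractile and matrix genes fell by less in cHyper. Their differences were 1.21 for Acta2, 1.27 for Myl9, 1.27 for Ccn1, 1.45 for Mgp and 1.52 for Tagln. Gas1, which encodes a hedgehog co-receptor, also fell by less in cHyper and differed by 1.37. Of the interferon response, Stat2, Ifit3 and Irf7 fell by less in cHyper, with differences of 0.833, 1.63 and 1.94. Oasl1, Usp18, Rsad2 and the chemokine Cxcl10 differed by 1.93, 1.03, 1.12 and 1.59, and their changes were larger in cHyper. In that order their log2 changes were 2.5, 0.812, 1.29 and 1.36 in cHyper. In WT they were 0.563, -0.219, 0.175 and -0.234, and Cxcl10, Usp18 and Rsad2 were not called within WT. Other genes of the text that fell by less in cHyper differed by 0.628 for Tnfrsf1a, 0.674 for Notch3, 0.754 for Jag2 and 0.839 for Btg2. For Crp and Alox5, which also fell by less, the differences were 1.24 and 1.32. Wfdc18, Clca3a2 and Krtdap differed by 1.24, 1.39 and 1.91. They fell in WT but had positive log2 changes in cHyper, of 0.354, 0.286 and 0.777. No sample was tested as an outlier, since groups of 3 are too small for that test.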

How the results depend on the processing

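Over 14 alternatives the number of genes higher in mTEChi ran from 11135 to 13179 and the number lower from 6268 to 8819, and no gene called in both the reported and an alternative fit changed direction. Leaving out single libraries gave 11168 to 11561 higher and 7900 to 8750 lower. Of all called genes, 57.8% were higher as reported and 67.7% with library totals as scaling. Genes past a 2-fold test numbered 10881, and past a 4-fold test 6824. The difference in detected genes, 8146, was 6050 at 5 fragments and 5261 at 1 deposited TPM, and 7901 to 8459 without single libraries. The 595 genes whose change differed between cHyper and WT became 1103 with no filter on low counts, where more genes are tested, 1425 with DESeq2, 282 with replicates 1 and 2 alone (chosen after seeing the data), where fewer libraries are used, and 354 to 629 without single libraries; for DESeq2 and the single libraries the cause was not tested. No label says that a replicate number marks a shared animal or batch. Same-numbered mTEChi and mTEClo libraries deviated from their group means together with r of 0.111, 0.104 and 0.125 in cHyper and 0.172, 0.093 and 0.233 in WT, and since 1 pair fell below 0.1 the numbers were not taken to pair the samples. Every library nevertheless correlated best with its own number within its genotype. There the highest r between different numbers was 0.0501, a hint from the data and not from the design. Replicate 3 was also the shallowest library of every group, cHyper included, and had no Ddx3y fragment in any. The replicate number thus went with sex and depth, and the reported fit did not allow for it. The replicate block gave 11693 higher, 8795 lower and 855 differing genes. Of 507 named genes called, 492 kept their call in every alternative run, 15 lost it in at least 1, and 47 others gained one; none reversed. Among list counts, DNA replication genes that were lower numbered 8, or 4 to 5 with other scalings, and microfold genes 2, or 1 under 8 alternatives. Counts of scarce genes are limited by depth.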
